A study of Homo sapiens with 12 samples.

Results

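Expression of 10 epithelial-mesenchymal transition (EMT) marker genes, CDH1, EPCAM, CDH2, FN1, VIM, SNAI1, SNAI2, TWIST1, ZEB1 and ZEB2, was examined in FaDu cells with and without STING. The genes were chosen by symbol, and all 10 are among the 58288 genes listed for these libraries. FaDu is an established human head and neck squamous cell carcinoma (HNSCC) line, and STING is the adaptor of the cytosolic DNA sensing pathway (gene symbol TMEM173 here). Polyadenylated RNA was sequenced from STING WT and STING KO (genotype STING-/-) cells that were either unirradiated or given 2 Gy on each of 4 days. Each of the 4 groups had 3 libraries. All cells were grown in the same serum-containing medium. Per the study's methods, Cas9 was delivered to the cells by lentivirus, STING KO was made with 1 STING guide RNA, and the WT cells carried a non-targeting guide. A single KO population was compared with a single control population, so the loss of STING and any other difference between these populations cannot be told apart. Neither the time from the last fraction to RNA collection nor whether the 3 libraries of a group came from separate cultures is given in the sources used here, and the p-values therefore measure the spread between these libraries, which may be technical.

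EMT is a program by which cells that adhere to one another in sheets loosen their junctions and gain the motility and matrix production of mesenchymal cells. Its usual markers are loss of the epithelial adhesion proteins E-cadherin (CDH1) and EPCAM, gain of N-cadherin (CDH2), fibronectin (FN1) and the intermediate filament vimentin (VIM), and activity of a few transcription factors of the SNAI, TWIST and ZEB families that repress epithelial genes. Carcinomas of the head and neck often hold intermediate states in which epithelial genes stay on while some mesenchymal genes rise, described as partial EMT.

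The values are transcripts per 1000000 (TPM), which are scaled to gene length and to the same total in every library, so levels of different genes can be set side by side, but the read depth behind a value is unknown. Between 14860 and 15292 genes per library reached 1 TPM. Differences were estimated with limma on log2(TPM + 1) for 15973 genes that reached 1 TPM in 3 libraries or more, and a gene was called at a Benjamini-Hochberg adjusted p under 0.05 over all of them. Every log2 fold change below is on this log2(TPM + 1) scale, which understates the change of low genes. TMEM173 lay between 5.18 and 7.41 TPM in the 6 KO libraries and between 21.1 and 26.1 TPM in the 6 WT libraries. All 10 markers fixed for a squamous epithelial line reached 1 TPM in every group, with a summed level of 7073 to 9904 TPM.

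In these cells the epithelial pair EPCAM and CDH1 was high in every library, as was the transcription factor SNAI2, while VIM, ZEB1 and ZEB2 were at or under about 1 TPM. STING KO lowered FN1 in unirradiated cells and moved no other marker past the threshold. Radiation raised CDH2, FN1 and EPCAM past the threshold in both WT and KO cells, and SNAI1 in WT cells. SNAI1 libraries were also higher with radiation in KO cells without overlap, short of the threshold. Of these calls, only those of CDH2 and of FN1 with radiation in KO cells held under every alternative setting. The difference in radiation response between WT and KO cells passed the threshold for none of the 8 markers tested.

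Ordered by mean TPM over the 12 libraries, the markers were EPCAM (276), CDH1 (126), SNAI2 (65.2), CDH2 (11.6), FN1 (10.9), TWIST1 (5.43), SNAI1 (2.08), VIM (0.967), ZEB1 (0.377) and ZEB2 (0.0734). Of the 9 neighbouring pairs in this order, 2 had overlapping ranges, CDH2 with FN1 and FN1 with TWIST1, and in the other pairs every library of the higher gene lay above every library of the lower one. ZEB1 and ZEB2 were under 1 TPM in all 12 libraries, failed the filter and are too low to judge. VIM passed the filter with a TPM of at least 1 in 7 of 12 libraries and, like SNAI1, had a mean under 5 TPM, so the log2 fold changes of both are compressed by the pseudocount of 1.

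**Figure D1:**
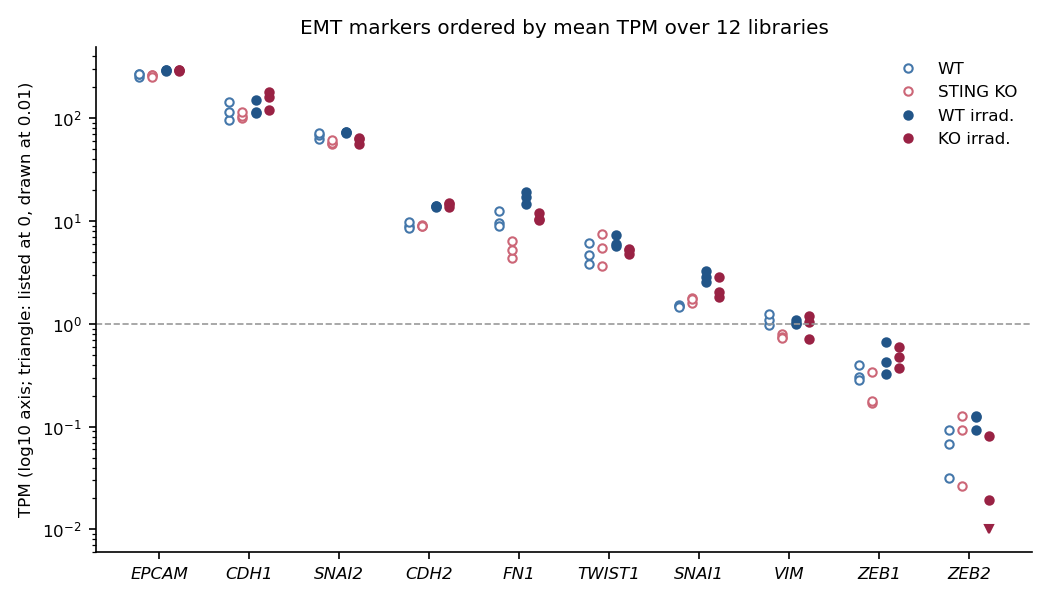
TPM of the 10 EMT markers (log10 axis, each point 1 library, 3 per group, genes ordered by mean over 12 libraries; open points unirradiated, filled points irradiated; the dashed line marks 1 TPM). EPCAM, CDH1 and SNAI2 lie above 50 TPM in every library, whereas ZEB1 and ZEB2 lie under 1 TPM in every library and ZEB2 is listed at 0 in 1 irradiated KO library.

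EPCAM, a cell adhesion glycoprotein of simple epithelia and carcinomas, was the most abundant of the 10 markers. On GRCh38 it spans 47345158 to 47387601 of chromosome 2, plus strand. EPCAM TPM was 253, 266 and 266 in unirradiated WT libraries, 262, 261 and 252 in unirradiated KO, 292, 285 and 295 in irradiated WT, and 294, 291 and 292 in irradiated KO. Every irradiated library lay above every unirradiated one, and WT and KO libraries overlapped in both arms. Radiation raised EPCAM by a log2 fold change of 0.15 in WT cells (SE 0.04, limma adjusted p = 0.046) and 0.18 in KO cells (SE 0.04, adjusted p = 0.023), a small rise over a narrow spread. The call in WT held under 3 of 20 alternative settings (adjusted p from 0.035 to 0.16) and was lost without any 1 of the 12 libraries. In KO cells the call held under 11 of 20 settings. It was lost with limma fitted without trend, with the replicate number as a block and with only the 6 libraries compared. It was also lost without any 1 of the 6 KO libraries, with adjusted p-values between 0.053 and 0.088.

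CDH1 encodes E-cadherin, the calcium-dependent adhesion receptor of epithelial adherens junctions, on the plus strand of chromosome 16 from 68737225 to 68835548. CDH1 TPM was 95.9, 142 and 114 in unirradiated WT libraries and 100.1, 105 and 114 in unirradiated KO libraries, and it was 115, 149 and 112 in irradiated WT and 179, 119 and 161 in irradiated KO libraries. Single libraries within a group differed by up to 1.5 times, and only the irradiated and unirradiated KO groups did not overlap. The log2 fold change with radiation was 0.50 in KO cells (95% interval 0.11 to 0.89, adjusted p = 0.16) and 0.09 in WT cells (-0.30 to 0.49, adjusted p = 0.84). For KO against WT the log2 fold changes were -0.13 in unirradiated cells (-0.52 to 0.27) and 0.28 in irradiated cells (-0.11 to 0.67). No lowering of CDH1 was found in any comparison at the threshold. A processed pseudogene, FTLP14, overlaps CDH1 on the same strand with a mean of 0.893 TPM.

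CDH2 encodes N-cadherin, the adhesion receptor of neural and mesenchymal cells that carcinoma cells can gain in EMT, on the minus strand of chromosome 18 from 27950966 to 28177446. CDH2 TPM was 8.96, 8.50 and 9.73 in unirradiated WT libraries, 9.17, 8.85 and 8.90 in unirradiated KO, 13.7, 14.1 and 14.0 in irradiated WT, and 13.8, 14.5 and 15.0 in irradiated KO. All 6 irradiated libraries lay above all 6 unirradiated ones, while WT and KO overlapped at both doses. The ratio of mean TPM with radiation was 1.54 in WT and 1.61 in KO cells. On the log2(TPM + 1) scale the rise was 0.57 in WT (SE 0.06, adjusted p = 0.0011) and 0.63 in KO (SE 0.06, adjusted p = 6.2e-04), and both calls held under all 20 alternative settings. KO against WT gave log2 fold changes of -0.01 in unirradiated cells (95% interval -0.15 to 0.13) and 0.05 in irradiated cells (-0.09 to 0.18).

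CDH1 stayed more abundant than CDH2 in every library. The ratio of CDH1 to CDH2 TPM was 10.7, 16.8 and 11.8 in unirradiated WT, 10.9, 11.9 and 12.8 in unirradiated KO, 8.34, 10.5 and 7.98 in irradiated WT, and 13.0, 8.22 and 10.7 in irradiated KO libraries. Irradiated WT libraries lay below unirradiated WT libraries in this ratio, and the KO groups overlapped.

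FN1 encodes fibronectin, the matrix glycoprotein that integrins bind and that mesenchymal cells secrete in quantity, on the minus strand of chromosome 2 from 215360440 to 215436172. FN1 TPM was 12.4, 9.50 and 8.92 in unirradiated WT libraries, 6.41, 4.36 and 5.25 in unirradiated KO, 19.1, 17.2 and 14.8 in irradiated WT, and 11.9, 10.6 and 10.3 in irradiated KO. KO libraries lay below WT libraries in each arm without overlap, irradiated libraries lay above unirradiated ones in each genotype, and irradiated KO libraries fell in the range of the unirradiated WT libraries. The ratio of mean TPM in KO to WT was 0.520 in unirradiated and 0.641 in irradiated cells. In unirradiated cells FN1 fell in KO by 0.83 on the log2(TPM + 1) scale (SE 0.15, adjusted p = 0.017). In irradiated cells the log2 fold change was -0.59 (SE 0.15), just short of the threshold (adjusted p = 0.058). The call in unirradiated cells was lost without unirradiated WT replicate 1 (adjusted p = 0.056), KO replicate 2 (0.073) or KO replicate 3 (0.068), and with only the 6 libraries compared (0.13). The value in irradiated cells passed the threshold in 4 of 20 settings (adjusted p from 0.015 to 0.18).

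Radiation raised FN1 1.66-fold in mean TPM in WT and 2.04-fold in KO cells. The log2 fold change was 0.68 in WT (SE 0.15, adjusted p = 0.034) and 0.92 in KO cells (SE 0.15, adjusted p = 0.0086), with an interaction of 0.24 (95% interval -0.23 to 0.70, adjusted p = 0.88). The call in KO cells held under all 20 settings. In WT cells it held under 12 of 20, and was lost with no filter on low values and with only the 6 libraries compared. It was also lost without unirradiated WT replicate 2 or 3, unirradiated KO replicate 3, irradiated WT replicate 1 or 2, or irradiated KO replicate 2 (adjusted p between 0.050 and 0.12). FN1 and CDH2, close in mean level, changed places with genotype. In both KO groups every FN1 value was below every CDH2 value, in irradiated WT cells every FN1 value was above every CDH2 value, and in unirradiated WT cells the values overlapped.

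**Figure D2:**
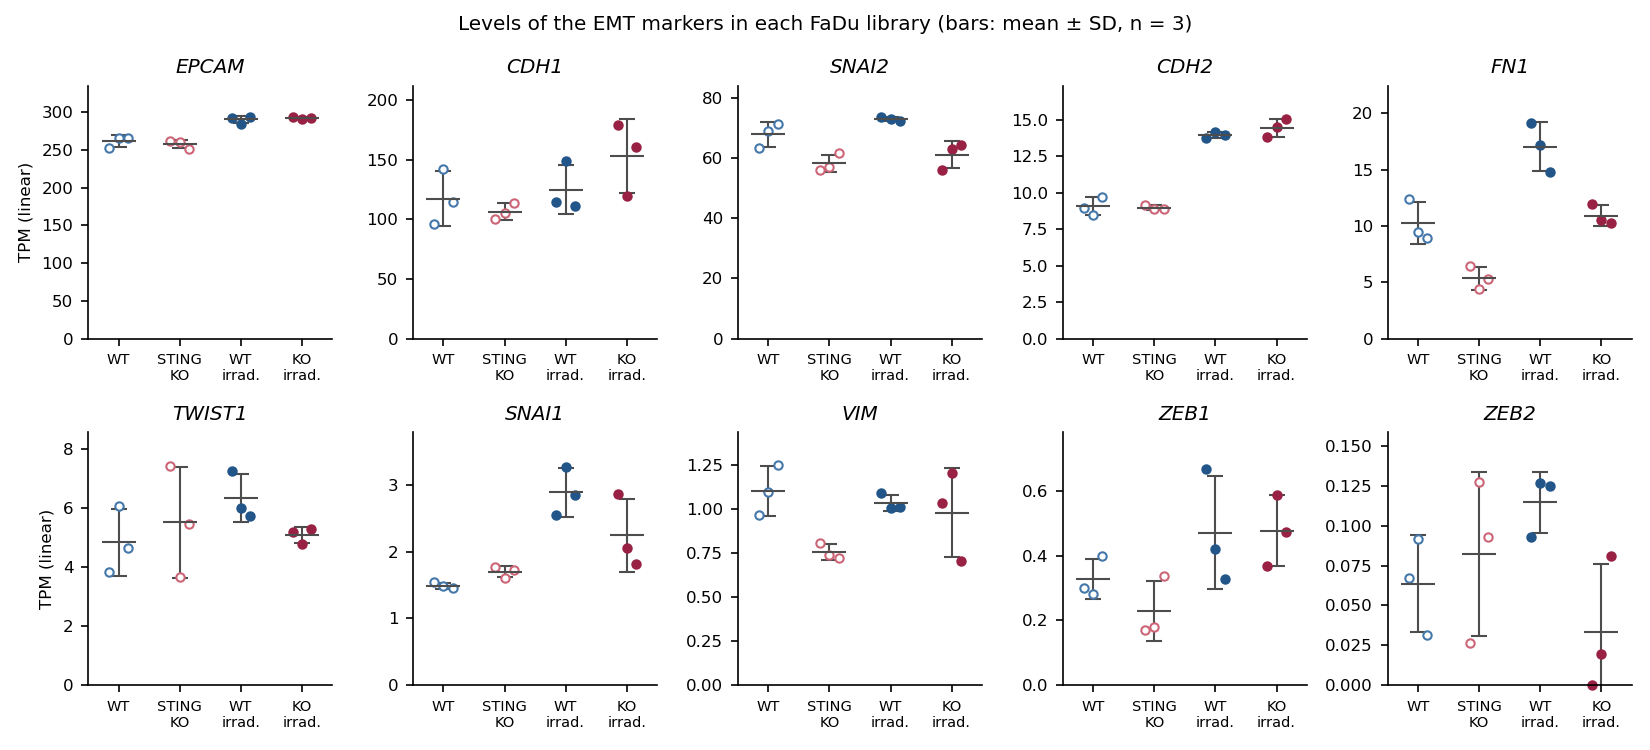
TPM of each EMT marker (linear axes that start at 0 and differ between genes) in the 4 groups, each point 1 library, with bars for the mean ± SD (n = 3). CDH2 is near 9 TPM in both unirradiated groups and near 14 TPM in both irradiated groups, and FN1 is lower in KO than in WT cells in each arm.

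The promoters of FN1 and CDH2 are shown because these genes rose with radiation in both genotypes, and FN1 was the marker called lower in unirradiated KO cells. The sequences are the 250 bases before the RefSeq start on GRCh38.p14, written 5′ to 3′ on the strand of the gene, with capitals for matches to TGACGTCA (the cyclic AMP response element), CCAAT and TATAA on either strand.
FN1, chr2:215436069-215436318, minus strand: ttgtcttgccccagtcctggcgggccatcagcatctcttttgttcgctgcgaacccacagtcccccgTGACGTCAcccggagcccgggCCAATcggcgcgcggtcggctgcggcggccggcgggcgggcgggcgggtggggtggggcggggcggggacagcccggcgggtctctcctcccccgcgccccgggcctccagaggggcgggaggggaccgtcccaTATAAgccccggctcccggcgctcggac
CDH2, chr18:28177131-28177380, minus strand: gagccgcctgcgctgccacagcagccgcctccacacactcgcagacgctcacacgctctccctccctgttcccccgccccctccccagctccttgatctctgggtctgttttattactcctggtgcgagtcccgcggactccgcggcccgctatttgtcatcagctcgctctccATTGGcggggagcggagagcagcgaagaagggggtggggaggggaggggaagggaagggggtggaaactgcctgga
The FN1 window held TGACGTCA 183, CCAAT 162 and TATAA 28 bases before the start, and the CDH2 window held CCAAT on the opposite strand (ATTGG) 76 bases before it. The RefSeq starts lie inside the GENCODE gene spans given above, so the CDH2 window falls wholly and the FN1 window partly within them. Another CDH2 window, not printed, held matches to CCAAT 67 and to TATAA 33 and 32 bases before its start. Of all 35116 RefSeq promoter windows of the same length, 1.65% held TGACGTCA, 32.0% held CCAAT and 18.9% held TATAA. These 3 motifs were chosen after the sequences had been read. CACCTG, the E-box form that ZEB and SNAI factors bind, was in neither printed window on either strand, against 17.5% of all windows. Among 12 windows of the 5 markers found in the table (FN1, VIM, CDH2, ZEB1 and ZEB2), CACCTG was present in 2, both of ZEB1. CDH1, EPCAM, SNAI1, SNAI2 and TWIST1 had no entry. These matches describe the letters of the windows and not binding.

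VIM encodes vimentin, the intermediate filament protein of mesenchymal cells, on the plus strand of chromosome 10 from 17228259 to 17237593. VIM TPM was 0.964, 1.10 and 1.25 in unirradiated WT libraries, 0.804, 0.736 and 0.721 in unirradiated KO, 1.09, 1.00 and 1.01 in irradiated WT, and 1.03, 1.20 and 0.705 in irradiated KO. Unirradiated KO libraries lay below unirradiated WT libraries and the other comparisons overlapped. The log2 fold change for KO in unirradiated cells was -0.26 (95% interval -0.52 to 0.003, adjusted p = 0.36), and those of the other comparisons lay between -0.05 and 0.17. At about 1 TPM, vimentin RNA was near the lower limit of what these values can judge.

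The transcription factors of the set differed in level by over 100-fold. SNAI2 (Slug), a zinc finger repressor that basal epithelial and squamous cells also express, is on the minus strand of chromosome 8 from 48917604 to 48921740. SNAI2 TPM was 63.4, 69.1 and 71.4 in unirradiated WT libraries, 56.3, 57.0 and 61.6 in unirradiated KO, 73.8, 73.1 and 72.3 in irradiated WT, and 56.1, 63.2 and 64.6 in irradiated KO. KO libraries lay below WT libraries in both arms, by a modest step. The log2 fold change for KO was -0.22 in unirradiated (SE 0.07, adjusted p = 0.16) and -0.25 in irradiated cells (SE 0.07, adjusted p = 0.067), past the threshold under none of 20 alternative settings in either arm. For radiation the log2 fold change was 0.11 in WT (adjusted p = 0.45) and 0.07 in KO cells (adjusted p = 0.65).

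TWIST1, a basic helix-loop-helix factor of mesoderm and neural crest, is on the minus strand of chromosome 7 from 19020991 to 19117672. TWIST1 TPM was 3.81, 6.05 and 4.64 in unirradiated WT libraries, 7.40, 3.65 and 5.46 in unirradiated KO, 7.23, 6.004 and 5.71 in irradiated WT, and 5.18, 4.77 and 5.29 in irradiated KO. Unirradiated groups were widely spread and overlapped, and irradiated KO libraries lay just below irradiated WT libraries. Its log2 fold changes ran from -0.26 to 0.34 over the 4 comparisons, with an SE of 0.20 and adjusted p-values of 0.42 or more.

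SNAI1 (Snail), a zinc finger repressor of E-cadherin, is on the plus strand of chromosome 20 from 49982999 to 49988886. SNAI1 TPM was 1.54, 1.49 and 1.45 in unirradiated WT libraries, 1.78, 1.61 and 1.73 in unirradiated KO, 2.55, 3.28 and 2.85 in irradiated WT, and 2.87, 2.05 and 1.82 in irradiated KO. Irradiated libraries lay above unirradiated ones in both genotypes, unirradiated KO libraries lay above unirradiated WT libraries, and irradiated WT and KO libraries overlapped. With radiation the ratio of mean TPM was 1.94 in WT and 1.32 in KO cells. The log2 fold change was 0.64 in WT (SE 0.13, adjusted p = 0.023) and 0.25 in KO cells (SE 0.13, adjusted p = 0.33), and the difference between them was -0.39 (95% interval -0.78 to 0.01, unadjusted p = 0.053, adjusted p = 0.75). The call in WT cells held under 11 of 19 settings. It was lost with no filter on low values, with the replicate number as a block and with only the 6 libraries compared. It was also lost without unirradiated WT replicate 1, 2 or 3 or irradiated WT replicate 2 or 3, with adjusted p-values between 0.063 and 0.086.

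ZEB1 and ZEB2, zinc finger and homeodomain repressors of CDH1, were the lowest of the markers. ZEB1 (chromosome 10, plus strand, 31318495 to 31529814) was listed at 0.301, 0.283 and 0.401 TPM in unirradiated WT, 0.171, 0.179 and 0.336 in unirradiated KO, 0.669, 0.421 and 0.327 in irradiated WT, and 0.369, 0.589 and 0.475 in irradiated KO libraries. ZEB2 (chromosome 2, minus strand, 144364364 to 144524583) was listed at 0.0672, 0.0919 and 0.0314 TPM in unirradiated WT, 0.0262, 0.127 and 0.0928 in unirradiated KO, 0.0927, 0.127 and 0.125 in irradiated WT, and 0, 0.0192 and 0.0811 in irradiated KO libraries. ZEB1 libraries were higher in irradiated than in unirradiated KO cells without overlap. ZEB2 libraries were lower in irradiated KO than in irradiated WT cells and higher in irradiated than in unirradiated WT cells, also without overlap. In the other comparisons the libraries of both genes overlapped. For the 3 comparisons without overlap, a two-sided exact permutation test can only give a p of 0.1, the smallest that 3 libraries against 3 allow. Fitted with no filter on low values, the log2 fold change of ZEB1 was 0.27 (SE 0.10, unadjusted p = 0.020, adjusted p = 0.28), and those of ZEB2 were -0.11 (SE 0.04, unadjusted p = 0.028, adjusted p = 0.32) and 0.07 (SE 0.04, unadjusted p = 0.14, adjusted p = 0.62), by limma. ZEB1-AS1, which overlaps ZEB1 on the opposite strand, had a mean of 3.61 TPM, and the strand setting of the counting is not given in the sources used here, so how reads were divided between the pair is not known.

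Textbook regulators of ZEB1 and ZEB2 are the miR-200 microRNAs, which bind their messages and are abundant in epithelial cells. Mature sequences of the members miR-200c, miR-200b, miR-141 and miR-200a are shown because these form 2 groups by seed, bases 2 to 8. The seed is given in capitals (RefSeq, GRCh38.p14).
miR-200c-3p: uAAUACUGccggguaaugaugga
miR-200b-3p: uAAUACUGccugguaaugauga
miR-141-3p: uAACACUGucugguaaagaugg
miR-200a-3p: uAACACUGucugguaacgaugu
The first pair shares the seed AAUACUG and the second pair AACACUG. Mature microRNAs were not measured in these gene-level values. MIR200CHG, the host transcript that spans the miR-200c and miR-141 genes on chromosome 12 (6963246 to 6964447, plus strand), was at 19.0, 19.1 and 17.3 TPM in unirradiated WT, 17.8, 19.6 and 21.2 in unirradiated KO, 16.9, 19.5 and 16.2 in irradiated WT, and 16.5, 18.3 and 16.6 in irradiated KO libraries. For MIR200CHG the groups overlapped in all 4 comparisons, with adjusted p-values of 0.31 or more. MIR205HG, a transcript on the epithelial list that spans the miR-205 gene, was lower in irradiated than in unirradiated WT libraries without overlap. Its log2 fold change there was -0.49 (limma unadjusted p = 0.0093, adjusted p = 0.12), and its groups overlapped in the other comparisons.

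For STING KO against WT in unirradiated cells, 1 of the 8 markers tested passed the threshold (FN1, lower), where 1.73% of all tested genes did (0.463% higher and 1.26% lower). In irradiated cells 0 of 8 passed by limma, where 3.59% of all genes did (0.927% higher, 2.66% lower). At an unadjusted p under 0.05, 2 of 8 markers, FN1 and SNAI2, lay past it in both arms, where 14.3% of all tested genes did in unirradiated and 17.9% in irradiated cells. With radiation 4 of 8 passed in WT cells and 3 of 8 in KO cells, all higher, against 3.74% (2.24% higher, 1.50% lower) and 3.69% (2.00% higher, 1.70% lower) of all genes. The groups of libraries did not overlap for 4 and 3 of the 8 markers in the KO comparisons of unirradiated and irradiated cells, and for 5 of 8 in each radiation comparison. Over all tested genes these shares were 20.6%, 24.1%, 24.8% and 24.3%. For the interaction 0 of 8 markers passed by limma and 0 of 8 had an unadjusted p under 0.05, where 3 of all tested genes (0.0188%) passed and 1056 (6.61%) had an unadjusted p under 0.05. The KO comparisons and the radiation comparisons share groups of libraries and are not independent of each other.

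**Figure D3:**
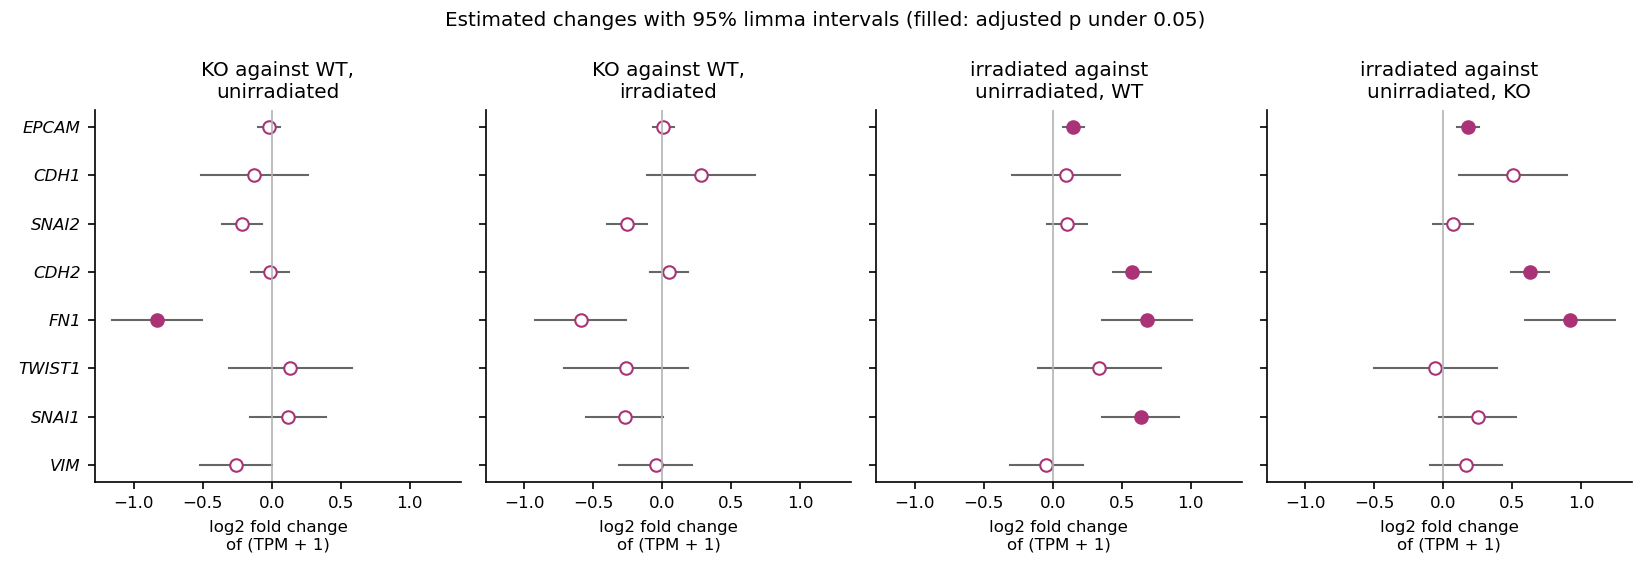
Log2 fold changes of (TPM + 1) with 95% limma intervals for the 8 markers tested, in the 4 comparisons (filled points: adjusted p under 0.05). FN1 is below 0 in both KO comparisons, at -0.83 and -0.59, and CDH2, FN1 and EPCAM are above 0 with radiation in both genotypes.

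Other genes of the mesenchymal state rose with radiation, and a few were lower in KO cells, as FN1 was. Of 52 listed genes, with CDH2, FN1 and VIM among them, 37 were tested. After radiation 13 rose and 0 fell in WT cells, and 12 rose and 0 fell in KO cells. CDH2 and FN1 are counted among the genes that rose in each genotype. Over all tested genes 2.24% rose and 1.50% fell in WT cells, and 2.00% and 1.70% in KO cells. The median log2 fold change of the list was 0.27 in WT and 0.23 in KO cells, against 0.02 over all tested genes in each. Those with the smallest p-values beside CDH2 were NT5E (CD73, an ecto-nucleotidase, 1.25 in WT and 0.93 in KO), COL4A1 (a basement membrane collagen chain, 0.50 and 0.31) and CDH11 (OB-cadherin, 0.79 and 0.96), all past the threshold in both genotypes. In KO against WT, 0 rose and 4 fell in unirradiated cells, namely TAGLN (transgelin, an actin-binding protein of smooth muscle and myofibroblasts, -0.49), FN1, ACTA2 (smooth muscle actin, -0.57) and ITGA5 (the integrin subunit that binds fibronectin, -0.41). In irradiated KO cells 0 rose and 6 fell, among them NT5E (-0.61), ITGA5 (-0.60), TAGLN (-0.42) and COL4A1 (-0.29). Under quantile normalization 1 rose and 3 fell in that comparison. List medians were -0.10 in both arms, against -0.02 over all genes in each. Of all tested genes 0.463% were higher and 1.26% lower in unirradiated KO cells, and 0.927% and 2.66% in irradiated KO cells. ITGB1 and CD44, the most abundant genes of the list, had means of 371 and 302 TPM and passed the threshold in none of the 4 comparisons.

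The mean TPM of TAGLN was 28.9 ± 0.862 (SD, n = 3) in unirradiated WT, 20.3 ± 1.47 in unirradiated KO, 40.4 ± 3.61 in irradiated WT and 29.8 ± 1.23 in irradiated KO cells. ITGA5 stood at 22.2 ± 2.21, 16.4 ± 0.958, 29.2 ± 1.01 and 19.0 ± 1.64 TPM in the same order. Both had their highest mean in irradiated WT and their lowest in unirradiated KO cells, as FN1 did. Between these, irradiated KO cells had a slightly higher mean than unirradiated WT cells for FN1 and TAGLN and a lower one for ITGA5, and the libraries of these middle groups overlapped for all 3 genes. Among 10 fibroblast markers, COL1A1 lay between 6.34 and 9.23 TPM over the 12 libraries, POSTN and LUM were listed at 0 in all of them, the other 7 stayed under 1 TPM, and the summed level was 6.41 to 9.05 TPM in unirradiated and 6.50 to 9.38 TPM in irradiated libraries. Among 6 endothelial markers the summed level was 11.5 to 15.9 TPM in unirradiated and 18.3 to 23.9 TPM in irradiated libraries, carried by CDH5 (8.51 to 19.8 TPM) and VWF (2.60 to 4.49 TPM). The other 4, PECAM1, KDR, TEK and CLDN5, were under 0.1 TPM in every library. Whether cells that carry these markers had a part in the radiation result was not tested. Leukocyte markers summed to 3.58 to 5.74 TPM, from CD14 and ITGAM. In bulk RNA such as this, fewer cells of a type and less RNA per cell cannot be told apart.

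**Figure D4:**
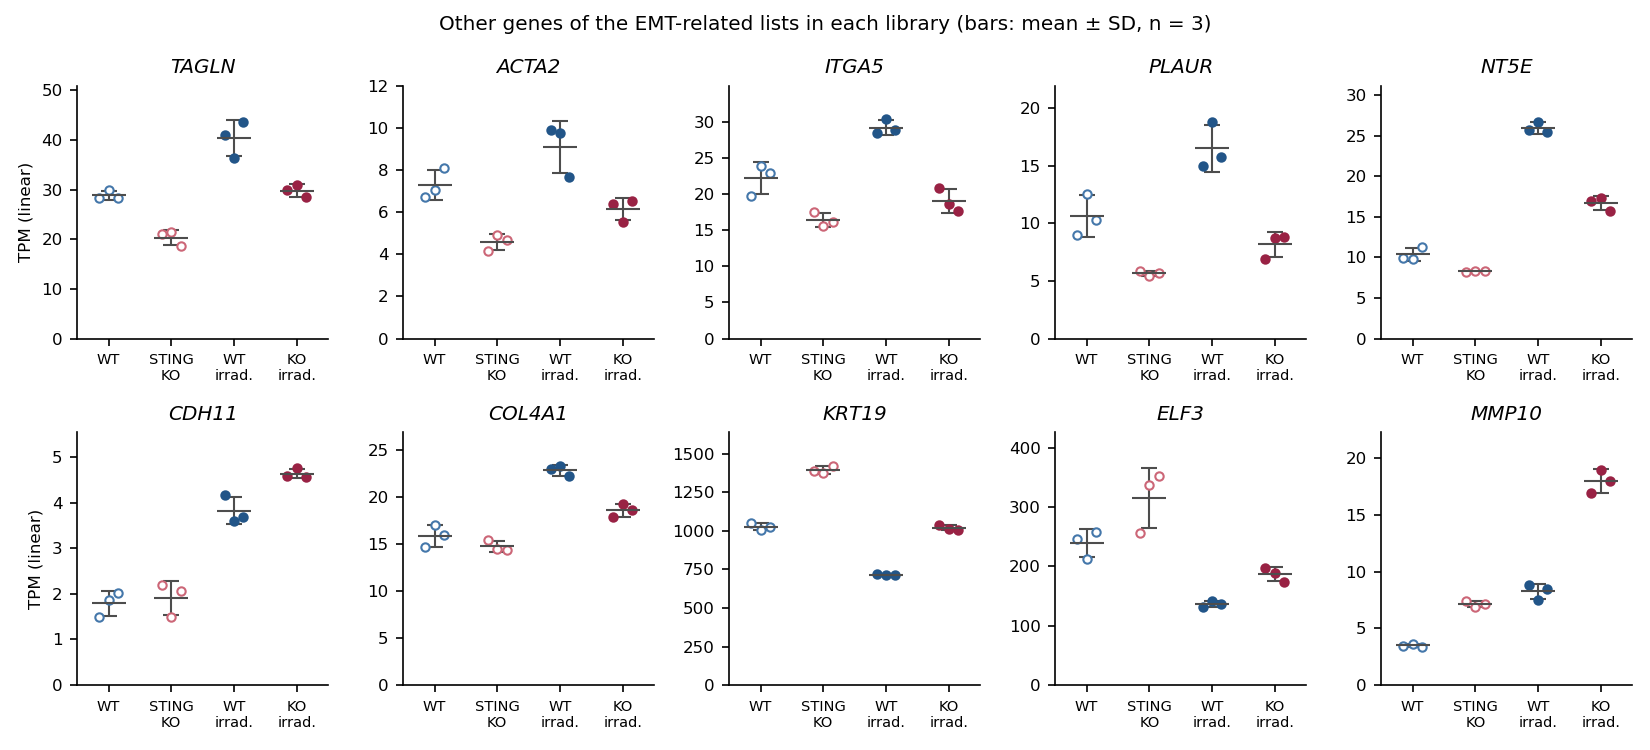
TPM of 10 further genes of the EMT-related lists (linear axes from 0, each point 1 library, bars for the mean ± SD, n = 3). TAGLN, ACTA2, ITGA5 and PLAUR are lower in KO than in WT cells in both arms, and KRT19 and MMP10 are higher.

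The fibronectin receptors and matrix partners, 16 tested of 20 listed, had ITGA5 lower in unirradiated KO cells, and ITGA5 and SDC4 (syndecan-4, -0.38) lower in irradiated KO cells, with 0 higher. With radiation THBS1 (thrombospondin-1) rose by 0.43 in WT and 0.28 in KO cells, ITGA5 by 0.38 in WT and FBLN5 by 0.56 in KO cells, and 0 fell. The abundant receptors ITGB1 and SDC4, at 371 and 336 TPM, did not pass the threshold with radiation. Of all tested genes 1.73% and 3.59% passed for KO in unirradiated and irradiated cells. For radiation 3.74% passed in WT and 3.69% in KO cells.

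On the list of the epithelial state, the genes that passed the threshold in KO against WT were higher in KO cells, while markers of squamous epithelium went in both directions. Of 45 listed genes 44 were tested, and in KO against WT 3 rose and 0 fell in unirradiated cells and 5 rose and 0 fell in irradiated cells. KRT19, a keratin of simple epithelia, rose by 0.44 and 0.51 on the log2(TPM + 1) scale, from 1028 to 1396 TPM in unirradiated and from 717 to 1022 TPM in irradiated cells. CGN (cingulin of tight junctions, 0.38 and 0.36) rose in both arms, and RAB25 (0.24) and GRHL1 (0.33) in irradiated cells. List medians were 0.07 and 0.11, against -0.02 over all genes in each. Of all tested genes 0.463% were higher and 1.26% lower in unirradiated KO cells, and 0.927% and 2.66% in irradiated KO cells. Of the 10 squamous markers, all tested, 1 was higher and 1 lower in unirradiated KO cells, and 0 were higher and 3 lower in irradiated KO cells. KRT17, a keratin of basal and squamous cells with a mean of 3741 TPM, fell by 0.29 in unirradiated (adjusted p = 0.014) and 0.46 in irradiated KO cells (adjusted p = 4.9e-04). KRT14, a basal keratin, rose by 0.24 in unirradiated KO cells. KRT5, with a mean of 2918 TPM, was higher in KO libraries in both arms without overlap but passed in neither. Its log2 fold changes were 0.52 in unirradiated (limma adjusted p = 0.16) and 0.54 in irradiated cells (adjusted p = 0.11). In irradiated KO cells COL17A1, a hemidesmosome collagen, fell by 0.42 and SFN (stratifin, 14-3-3 sigma) by 0.21, and SFN did not pass under median-of-ratios factors (adjusted p = 0.053).

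With radiation the epithelial list was split, with 6 higher and 5 lower in WT and again 6 higher and 5 lower in KO cells. Median-of-ratios factors turned these splits to 4 higher and 5 lower in WT and 5 higher and 7 lower in KO cells. Of all tested genes 2.24% were higher and 1.50% lower with radiation in WT cells, and 2.00% and 1.70% in KO cells, in the main fit. KRT18 rose by 0.53 in WT and 0.49 in KO cells while KRT19 fell by 0.52 and 0.45, so these simple-epithelial keratins moved in opposite directions. ELF3, an epithelial ETS factor, fell by 0.80 and 0.74. ESRP1, the epithelial splicing regulator, fell by 0.24 and 0.23, and CD24 rose by 0.82 and 0.83. EPCAM was among the genes that rose and CDH1 was not. KRT8, the most abundant gene of the list at 1699 TPM, passed the threshold in none of the 4 comparisons. Of the 10 squamous markers 1 rose and 1 fell with radiation in WT cells, and 1 rose and 3 fell in KO cells. Under median-of-ratios factors 3 fell in WT cells. List medians were -0.03 in WT and -0.19 in KO cells, against 0.02 over all genes in each. KRT16 rose by 0.91 and 0.85, and DSG3 fell by 0.38 in each genotype. SFN fell by 0.28 and PKP1 by 0.54 in KO cells.

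**Figure D5:**
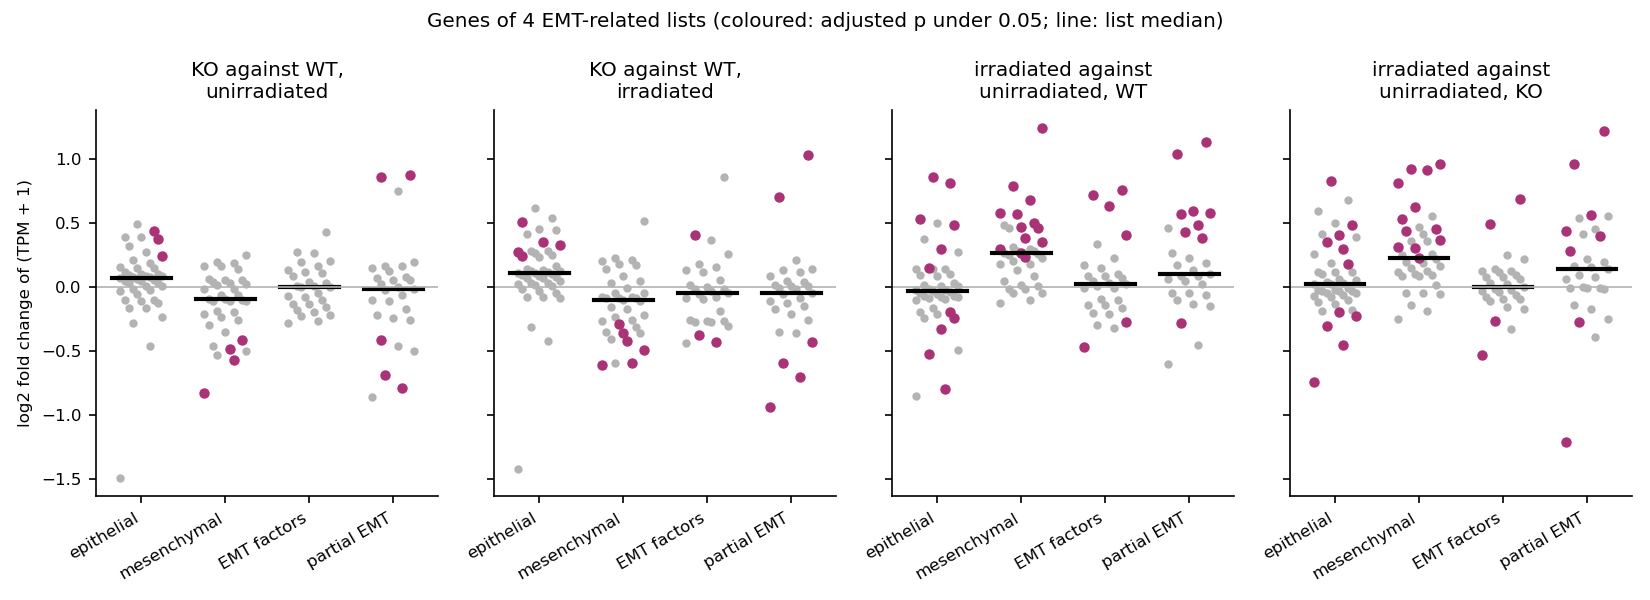
Log2 fold changes of (TPM + 1) of the tested genes of 4 lists in the 4 comparisons (each point 1 gene, coloured where the adjusted p is under 0.05, horizontal line the list median). After radiation the 13 and 12 coloured mesenchymal genes, CDH2 and FN1 among them, all lie above 0. In KO against WT all coloured mesenchymal genes lie below 0 (under quantile normalization 1 rose in irradiated cells).

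Of 36 transcription factors and cofactors tied to EMT, 29 were tested, and for STING KO 0 passed in unirradiated cells by limma, while in irradiated cells 1 was higher and 2 were lower, among them FOXC1 (0.41) and FOSL1 (-0.43). With radiation FOSL1, an AP-1 subunit, rose by 0.76 in WT and 0.50 in KO cells and SOX9 by 0.72 and 0.69. ID1, an inhibitor of basic helix-loop-helix factors and the most abundant of the list at 284 TPM, fell by 0.47 and 0.53, and SOX4 fell by 0.27 and 0.26. HMGA2 rose by 0.41 in WT cells, while its difference between genotypes did not pass. In all 4 rose and 2 fell in WT cells, which became 3 and 3 under median-of-ratios factors or quantile normalization, and 2 rose and 2 fell in KO cells. Over all tested genes 2.24% rose and 1.50% fell with radiation in WT cells, and 2.00% and 1.70% in KO cells. For STING KO in irradiated cells 0.927% of all tested genes were higher and 2.66% lower. HDAC1, next in level at 216 TPM, passed in none.

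The list for the partial EMT of head and neck carcinoma, 29 tested of 31, moved in both directions with STING. In unirradiated KO cells MMP10 (0.86) and MMP1 (0.88), secreted matrix proteases, were higher, and PLAUR (-0.79), the urokinase receptor, and ITGA5 (-0.41) were among the genes that were lower. In irradiated KO cells MMP10 (1.04) and MMP1 (0.71) were higher, and PLAUR (-0.93), ITGA5 (-0.60) and COL17A1 (-0.42) were among those that were lower. With radiation 8 rose and 1 fell in WT and 6 rose and 2 fell in KO cells. Over all tested genes 2.24% rose and 1.50% fell in WT cells, and 2.00% and 1.70% in KO cells. The list median was 0.11 in WT and 0.14 in KO cells, against 0.02 over all tested genes in each. MMP10 rose by 1.04 in WT and 1.22 in KO cells, MMP1 by 1.14 and 0.97, and PLAU (urokinase) by 0.48 and 0.40, while CAV1, the most abundant of the list at 1024 TPM, fell by 0.28 and 0.27. LGALS1, at 801 TPM, passed in none.

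Among 17 adherens junction genes, all tested, PLEKHA7, a partner of the cadherin-catenin complex, fell in KO by 0.51 in unirradiated and 0.99 in irradiated cells. NECTIN1 fell with radiation by 0.33 in WT and 0.42 in KO cells, JUP (plakoglobin, the most abundant at 321 TPM) fell by 0.17 in KO cells, and CDH2 rose in both. VCL, at 308 TPM, and the catenins CTNNA1, CTNNB1 and CTNND1 did not pass in any of the 4 comparisons. Of all tested genes 1.73% and 3.59% passed for KO in unirradiated and irradiated cells. With radiation 3.74% passed in WT and 3.69% in KO cells. No gene of the 6 lists passed the threshold for the interaction by limma, where only 3 of all tested genes (0.0188%) did.

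The tested genes most like each changed marker over the 12 libraries were found by Pearson's r of log2(TPM + 1), a description over libraries that share groups. FN1 was most like AL512488.1 (r = 0.97), AREG (0.96), which encodes the EGF receptor ligand amphiregulin, and MARCKSL1 (0.95). CDH2 was most like ODC1 (0.98), SLC12A7 (0.98) and OTUB2 (0.98), and EPCAM most like CPA4 (0.98), CST6 (0.98) and ODC1 (0.97). SNAI1 was most like AL390719.1 (0.94), NGRN (0.92) and FAM43A (0.91).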

How the data were processed

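The authors deposited TPM values per gene and library, scaled to 1000000 per library. The submitters' processing notes name HISAT2, StringTie, DESeq2 and hg38, without versions. The annotation, strand setting and depth are not given in the sources used here. TPM keeps no read depth, so no counting error can be attached, and the spread between 3 libraries is the measure of error.

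Columns were matched to samples by genotype, dose and replicate number. From the deposited TPM, log2(TPM + 1) entered limma 3.58.1 in R 4.3.3 (4 group means, eBayes with trend) for genes that reached 1 TPM in 3 libraries or more, giving 5 contrasts. The study used DESeq2 on counts, which were not used here. The code was tested on simulated data. A marker under 1 TPM in 10 or more libraries was called too low to judge. Positions are from GENCODE release 29. Motifs were searched on both strands.

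Named genes are the 10 markers, TMEM173, and from each list the 2 most abundant genes and, per contrast, up to 4 genes past the threshold with the smallest adjusted p, plus the 3 genes most correlated with each changed marker. CLDN4, KRT17, KRT14, KRT5, SFN, MIR200CHG, MIR205HG, ZEB1-AS1, FTLP14, the catenins and the genes of a list beyond the first 4 were named after their values were seen. KRT16, DSG3 and PKP1 were also named in this way. Some genes of the lists are counted but not reported here by name. The markers and lists were chosen with earlier results of these data known. Other settings tried were eBayes without trend, quantile normalization, a pseudocount of 0.1, median-of-ratios factors, a replicate block, a minimum mean of 5 TPM, the full table without a filter, fits to the 6 libraries compared, and each library left out.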

Additional observations from a re-analysis of the deposited data

How the results depend on the processing

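Of 669 recomputed log2 fold changes of the 8 tested markers (for the interaction, of FN1 and SNAI1), 606 kept their direction and side of the threshold, 46 lost a call, 4 gained one and 13 turned direction, all of the last for values that had not passed. CDH2 with radiation in both genotypes and FN1 with radiation in KO cells passed in every setting. Fits to only the 6 libraries compared called 103 and 252 genes for KO against WT in unirradiated and irradiated cells and 166 and 195 for radiation in WT and KO cells, with 0 markers in the first and 1 in the third (CDH2). With no filter on low values 1 marker (CDH2) passed for radiation in WT cells and 7 genes for the interaction, and with a mean TPM of at least 5, 1 marker (FN1) passed for KO in irradiated cells.

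Same-numbered libraries did not deviate together (residual correlations from -0.060 to 0.064 over 18 pairs), so no shared effect of the replicate number was seen. These correlations cannot show whether same-numbered libraries were prepared together. A replicate block gave 378 genes and 1 marker (FN1) for KO in irradiated cells, 315 genes and 2 markers (CDH2 and FN1) for radiation in WT, 359 genes for radiation in KO and 1 gene for the interaction. In most of the 18 pairs a library did not correlate best with the library of its own number. With each library left out, the genes called ranged from 172 to 292 and from 313 to 542 for KO in unirradiated and irradiated cells, from 242 to 526 and from 268 to 553 for radiation in WT and KO cells, and from 1 to 9 for the interaction. The markers called ranged from 0 to 1, 0 to 1, 1 to 3, 2 to 3 and 0 to 0 in the same order.

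For KO in unirradiated cells CDH2 turned to 0.011 and EPCAM to 0.0037 with median-of-ratios factors, and CDH2 to 0.043 with quantile normalization, which also turned VIM to 0.015 in irradiated cells. With a library left out the values that turned ranged from -0.26 to 0.021 (CDH1), -0.051 to 0.037 (CDH2) and -0.072 to 0.35 (TWIST1) for KO in unirradiated cells, from -0.0053 to 0.018 (EPCAM) and -0.13 to 0.057 (VIM) in irradiated cells, from -0.042 to 0.24 (CDH1) and -0.095 to 0.0026 (VIM) for radiation in WT cells, and from -0.28 to 0.15 (TWIST1) in KO cells. For the list counts, chosen after seeing the data, quantile normalization gave 1 mesenchymal gene higher and 3 lower for KO in irradiated cells. With CANNTG in place of CACCTG, 61.8% of promoter windows held the motif. The cause of these changes was not tested, beyond the smaller number of libraries or genes in a fit. Read depth is unknown, so it could not be set against any value.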

Other observations

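CLDN4, a tight junction claudin on the epithelial list, was spread widely within every group. CLDN4 TPM was 81.3, 87.3 and 1.22 in unirradiated WT libraries, 77.9, 2.37 and 1.70 in unirradiated KO, 41.8, 104 and 2.49 in irradiated WT, and 10.6, 1.73 and 24.6 in irradiated KO. The log2 fold change for KO in unirradiated cells was -1.50 with an SE of 1.83 (limma adjusted p = 0.77). The cause was not tested.

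AREG, 1 of the 3 genes most like FN1 over the libraries, was at 119, 121 and 111 TPM in unirradiated WT, 92.6, 88.3 and 91.4 in unirradiated KO, 167, 166 and 153 in irradiated WT, and 119.6, 127 and 126 in irradiated KO libraries. KO libraries lay below WT libraries at both doses, and irradiated libraries lay above unirradiated ones in each genotype. AREG was picked for its likeness to FN1 over these same libraries, so this shared order is not a separate result.

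The genes whose radiation response differed between genotypes at the threshold (limma) were MPP7 (interaction 1.21, adjusted p = 5.5e-04), AHNAK (0.87, adjusted p = 0.018) and MRE11 (1.01, adjusted p = 0.035), named after their values were seen. None is on the EMT-related lists.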
